A study of Danio rerio with 12 samples.

Results

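miR-150 is a microRNA best known from lymphocytes. The entry described is dre-miR-150, 1 of the 326 mature microRNAs that the small RNA tables of this zebrafish series list in the libraries used. It was taken by its name in the tables of sense reads. It was chosen by its read counts, which earlier results had shown to be high in endothelial cells and low in the other sorted cells. Its levels in both populations are therefore given as a description, without a test.

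MicroRNAs are short RNAs that sit in an Argonaute protein and lower the output of messenger RNAs whose 3' ends pair with the microRNA's seed. In mice, miR-150 accumulates as B and T cells mature and restrains the transcription factor Myb, which blood progenitors need. Endothelial cells line the blood vessels, and in the vertebrate embryo blood stem cells arise from endothelium of the dorsal aorta.

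The series asked how microRNAs of endothelial cells differ over development. Cells of transgenic zebrafish, raised at 28 °C, were dissociated with Liberase, sorted for GFP and used for small RNA libraries. By their titles, the 12 libraries are 6 of an Endo and 6 of a NoEndo population, at 24, 48 and 72 hpf (hours post fertilization) and 6 dpf (days post fertilization). The labels name no transgene, promoter or other allele, and no number of pooled embryos. The tissue, source and stain labels read endothelial and GFP for the NoEndo libraries too, so the groups rest on the titles and do not say which cells NoEndo held. Endo replicate 1 and NoEndo replicate 1 at 72 hpf hold identical tables, and both were left out. The 5 Endo and 5 NoEndo libraries used include 2 of each population at 48 hpf (replicates 1 and 2) and 1 of each at 24 hpf (replicate 1), 72 hpf (replicate 2) and 6 dpf (replicate 1). Nothing shows that replicates were separate clutches, so the p-values reflect only how much these libraries scatter around the fitted models. That scatter may be technical. Only 48 hpf has replicates, so it also holds departures of single stages from the fitted models.

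The libraries held 249950 to 1067284 microRNA counts in Endo and 642530 to 4987063 in NoEndo. The sort was compared with lists of cell type microRNAs. The lists were chosen with earlier results of these data known, so they are no independent check of the sort. All 3 tested microRNAs of the miR-126 list, which endothelium is known for, were higher in Endo, and their summed level lay between 16095 and 94225 CPM (mature microRNA counts scaled to the same library total) in Endo and between 136 and 715 CPM in NoEndo. All 9 tested microRNAs of the epithelial list were lower in Endo, with sums of 7073 to 34493 CPM in Endo and 72529 to 295024 CPM in NoEndo (edgeR, adjusted p under 0.05). The highest epithelial sum among the Endo libraries was at 24 hpf and the lowest at 6 dpf. Of all 265 tested microRNAs, 14.3% were higher and 27.5% lower in Endo. Of the neuron list, 2 of 3 were lower in Endo, with sums of 1036 to 9370 CPM in Endo and 2092 to 46685 CPM in NoEndo. Of the striated muscle list, 1 of 3 was lower, with sums of 1232 to 5604 CPM in Endo and 3043 to 17179 CPM in NoEndo, so the ranges of both lists overlapped. No list was at 0 in either population.

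In the genome build Zv9, dre-miR-150 lies at 1 place, on the plus strand of chromosome 3 from 32708295 to 32708316, a span of 22 bases. In the RefSeq gene table of a later assembly, GRCz12tu, used only for names and neighbours, the hairpin gene mir150 lies within the spans of bcl2l12, a protein-coding gene, and of the long non-coding RNA LOC141381222. The nearest protein-coding genes on either side are pax10 and tspan4b. Whether the hairpin lies in an exon or an intron was not analysed here. The nearest other microRNA listed, dre-miR-7146-5p, was 602686 bases away in Zv9, so miR-150 shared no cluster with another measured microRNA. At least 99.9% of its read count in each library was kept by the adjustment for multiple mapping, so reads shared with other places hardly touched its count. In 0 of the 12 tables of antisense reads was it listed.

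miR-150 was among the most abundant microRNAs of the Endo libraries from 48 hpf on. It made up 0.775% of microRNA counts in Endo at 24 hpf, 4.57% and 2.997% at 48 hpf (replicates 1 and 2), then 6.04% at 72 hpf and 6.13% at 6 dpf. In NoEndo it made up 0.0285% at 24 hpf, 0.0330% and 0.0267% at 48 hpf (replicates 1 and 2), then 0.0439% at 72 hpf and 0.0666% at 6 dpf. The lowest Endo library, at 24 hpf, lay above the highest NoEndo library, at 6 dpf, by 11.6-fold, so the populations did not overlap. Of 265 microRNAs with enough counts to test, 3.4% had every Endo library above every NoEndo library in CPM, a share given for background only, since this contrast chose miR-150.

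**Figure D1:**
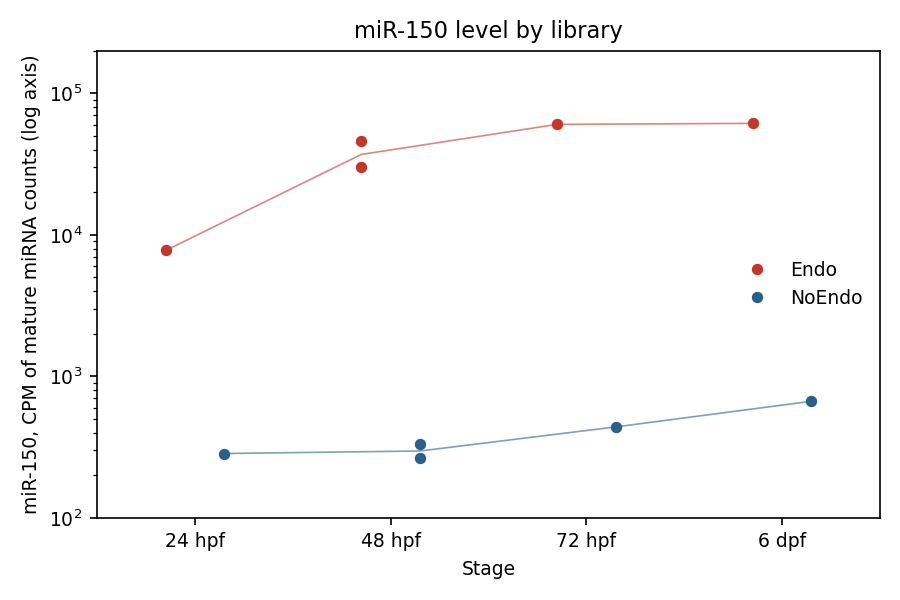
Level of miR-150 in each library (points, CPM of mature microRNA counts on a log axis) by stage, Endo left of NoEndo, with lines through the geometric mean of each stage. The Endo libraries run from 7752 to 61348 CPM and the NoEndo libraries from 267 to 666 CPM.

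In counts, miR-150 was read 2513 times in Endo at 24 hpf, 48766 and 22266 times at 48 hpf (replicates 1 and 2), then 60091 times at 72 hpf and 15334 times at 6 dpf. In NoEndo it was read 183 times at 24 hpf, 215 and 615 times at 48 hpf (replicates 1 and 2), then 2189 times at 72 hpf and 1154 times at 6 dpf. No library was near the floor of 3 counts. The 95% Clopper-Pearson interval, which covers counting error only, was 0.745% to 0.806% in the Endo library at 24 hpf and 0.0245% to 0.0329% in the NoEndo library at 24 hpf.

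By rank, miR-150 was number 20 of 274 listed microRNAs in Endo at 24 hpf, 6 of 283 and 8 of 290 at 48 hpf (replicates 1 and 2), then 3 of 288 at 72 hpf and 5 of 227 at 6 dpf. In NoEndo it was number 98 of 298 at 24 hpf, 116 of 295 and 146 of 322 at 48 hpf (replicates 1 and 2), then 103 of 322 at 72 hpf and 63 of 295 at 6 dpf. The number of microRNAs listed tended to be larger in deeper libraries, but not always. NoEndo at 24 hpf listed 298 from 642530 counts, and NoEndo at 6 dpf listed 295 from 1731773. By mean level over the 5 Endo libraries miR-150 was number 7, with 41023 ± 22570 CPM (SD, n = 5). It stood between miR-221-3p of the vascular miR-221 and miR-222 pair (46836 ± 18523 CPM) and miR-125c-5p of the widely expressed miR-125 family (39628 ± 27308 CPM). These SDs mix the change over stages with replicate spread, so they do not say whether the 3 differ. Over the 5 NoEndo libraries miR-150 was number 117, with 397 ± 165 CPM, between miR-135c (402 ± 383 CPM) and the muscle microRNA miR-1 (391 ± 321 CPM). The same limit holds for these SDs. Levels of different microRNAs were compared without scaling to length, on the assumption that each read stands for a whole mature microRNA. Whether different microRNAs entered the libraries equally well was not tested, so ranks and ratios compare read counts, not molecules.

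In Endo at 24 hpf, the maternal-clearance microRNA miR-430b-3p took 27.7% of counts, and miR-150 was at 0.0280 of its level. In the later Endo libraries the leading microRNA took between 13.2% and 21.4% of counts, and miR-150 was at 0.227 to 0.457 of the leader. The leader was miR-92a-3p of the miR-17-92 cluster in both libraries at 48 hpf and miR-125b-5p at 72 hpf and 6 dpf.

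With the libraries put in order of miR-150, Endo at 6 dpf (61348 CPM) came before Endo at 72 hpf (60353 CPM), replicates 1 and 2 of Endo at 48 hpf (45692 and 29968 CPM) and Endo at 24 hpf (7752 CPM). The only measure of replicate spread in Endo is the gap between the replicates at 48 hpf, which was 1.52-fold in CPM. Endo at 6 dpf and 72 hpf, 1.02-fold apart, and Endo at 72 hpf and replicate 1 at 48 hpf, 1.32-fold apart, lay within that gap. From replicate 2 at 48 hpf, both 72 hpf and 6 dpf lay further than that gap. Endo replicate 2 at 48 hpf stood 3.87-fold above Endo at 24 hpf in CPM, which is beyond it. Of the 265 tested microRNAs, 26.8% were likewise lowest at 24 hpf among the Endo libraries. In NoEndo, 6 dpf (666 CPM) came before 72 hpf (439 CPM), replicate 1 at 48 hpf (330 CPM), 24 hpf (285 CPM) and replicate 2 at 48 hpf (267 CPM). There the replicates were 1.24-fold apart and 24 hpf lay between them, with a counting interval (0.0245% to 0.0329%) that overlapped those of replicate 1 (0.0287% to 0.0377%) and replicate 2 (0.0246% to 0.0289%), while 72 hpf stood 1.33-fold above the higher replicate and 6 dpf 1.52-fold above 72 hpf.

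The Endo level of miR-150 over its NoEndo level was 27.2-fold at 24 hpf, 125-fold at 48 hpf, 137-fold at 72 hpf and 92.1-fold at 6 dpf in CPM. At 48 hpf, the 4 pairings of a single Endo with a single NoEndo library ran from 90.8-fold to 171-fold. The other stages have 1 library of each population, so their folds have no replicate check. In the fit over all microRNAs, with stage as a factor and TMM scaling (edgeR's trimmed mean of M values), the log2 difference between Endo and NoEndo was 6.97 (SE 0.57), beside a median of -0.07 over all 265 microRNAs. With total counts in place of TMM it was 6.51, beside a median of -0.52, a shift that touches every microRNA.

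Mature microRNAs were a smaller part of the Endo libraries. They made up 13.5% ± 4.29 of the larger library total that the tables also scale to in Endo, against 28.6% ± 8.82 for NoEndo (SD over 5 libraries each). The file headers leave the larger total undefined. Relative to it, miR-150 was at 0.0870% in Endo at 24 hpf, 0.742% and 0.232% at 48 hpf (replicates 1 and 2), then 1.13% at 72 hpf and 0.838% at 6 dpf. On this scale the fold from Endo at 24 hpf to replicate 2 at 48 hpf was smaller than that between the Endo replicates, unlike in CPM. In NoEndo it was at 0.00498% at 24 hpf, 0.00919% and 0.00634% at 48 hpf (replicates 1 and 2), then 0.0178% at 72 hpf and 0.0216% at 6 dpf. On this scale NoEndo at 24 hpf lay below both replicates at 48 hpf, not between them as in CPM. The populations still did not overlap, and the folds shrank to 17.5, 54.3, 63.7 and 38.8 at 24, 48 and 72 hpf and 6 dpf. In a sorted population, more miR-150 per cell and more cells that hold it cannot be told apart.

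**Figure D2:**
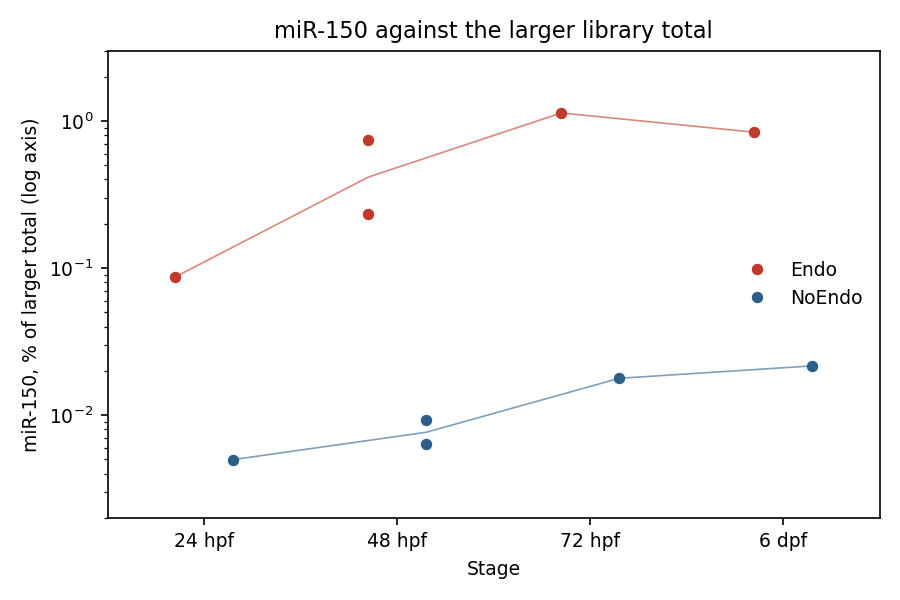
Reads of miR-150 in each library as a percent of the larger library total (log axis) by stage, Endo left of NoEndo, with lines through the geometric mean of each stage. The Endo libraries run from 0.0870% to 1.13% and the NoEndo libraries from 0.00498% to 0.0216%.

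Change with age was tested as a slope on log2 hours, that is the log2 change for each doubling of age. The test used 1 edgeR model with a level and a slope for each population. miR-150 was not chosen on its slope, but its levels over stages were known beforehand. Its slope p-values are therefore no independent check. The slope of miR-150 in Endo was 1.49 (SE 0.42), or 2.81-fold for each doubling, but it did not pass over all microRNAs (edgeR adjusted p = 0.0547). Of the 265 tested microRNAs, 5.66% passed for a slope in Endo, and 16 had a larger Endo slope than miR-150, whether they passed or not. The called slopes were 8 positive and 7 negative, against 4 positive and 9 negative with total counts alone. The miR-150 slope stands near the threshold, and the choice of method moved it across. Its adjusted p was 0.0359 with DESeq2 size factors, 0.0326 when only microRNAs of at least 100 CPM were tested and 0.00275 in the DESeq2 Wald test, against 0.0598 in limma-voom and 0.110 with total counts alone. Without the Endo library at 24 hpf the slope was 1.20 (edgeR adjusted p = 0.307), and without Endo at 6 dpf it was 1.86. Without NoEndo at 24 hpf, NoEndo replicate 2 at 48 hpf or NoEndo at 6 dpf it passed (edgeR adjusted p = 0.0136, 0.0338 and 0.0312), with slopes of 1.490, 1.491 and 1.492. Those libraries are not among those the Endo slope runs through, but leaving them out changed the scaling, the spread and the number of microRNAs tested (262, 257 and 262).

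TMM scaling bears on the older end of that slope. The TMM factor of Endo at 6 dpf was 0.468, the lowest of the 10, and TMM-scaled miR-150 was 131057 CPM there, against 8834 CPM at 24 hpf, 47075 and 23695 CPM in replicates 1 and 2 at 48 hpf and 66368 CPM at 72 hpf. So TMM-scaled levels put 6 dpf above 72 hpf, while unscaled levels left them 1.02-fold apart. Even with TMM scaling, the fold from 72 hpf to 6 dpf was no larger than that between the Endo replicates at 48 hpf. With total counts alone the Endo slope of miR-150 was 1.10, beside a median of -0.45 over all 265 microRNAs, against a median of -0.03 with TMM.

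In NoEndo, the slope of miR-150 was 0.80 (SE 0.32), or 1.74-fold for each doubling, and did not pass (edgeR adjusted p = 0.124). Of the tested microRNAs, 15.1% passed for a slope in NoEndo, and 60 had a larger slope there than miR-150. The called slopes were 22 positive and 18 negative, against 8 positive and 12 negative with total counts alone. Both end stages decided its value. Without NoEndo at 6 dpf, where the TMM-scaled level was 1174 CPM, the slope was -0.00986 (edgeR adjusted p = 0.996), and without NoEndo at 24 hpf (315 CPM) it was 1.72 and passed (edgeR adjusted p = 0.0196). The other TMM-scaled levels in NoEndo were 229 and 113 CPM in replicates 1 and 2 at 48 hpf and 353 CPM at 72 hpf. So with TMM scaling 24 hpf lay above both replicates at 48 hpf, not between them as in unscaled CPM. The fold from the higher replicate to 72 hpf was smaller than that between the replicates, also unlike in unscaled CPM.

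The difference between both slopes, Endo minus NoEndo, was 0.69 (SE 0.53) and did not pass (edgeR adjusted p = 0.999). Of all 265 microRNAs, 0% passed this test in edgeR, 12 had an unadjusted p under 0.05, and DESeq2 and limma-voom called 1 and 0. The fold between populations was lowest at 24 hpf in CPM, but there it compares 1 library with 1. That Endo library also had the highest summed epithelial level of the Endo libraries (34493 CPM). Whether this bears on the fold or on the Endo slope was not tested. The sign of the slope difference turned without NoEndo at 24 hpf (-0.23), without both libraries at 24 hpf (-0.52, an alternative chosen after seeing the data) and with the identical table kept as NoEndo (-1.90). That table holds 34181 CPM of miR-150, far above the highest NoEndo library used (666 CPM).

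**Figure D3:**
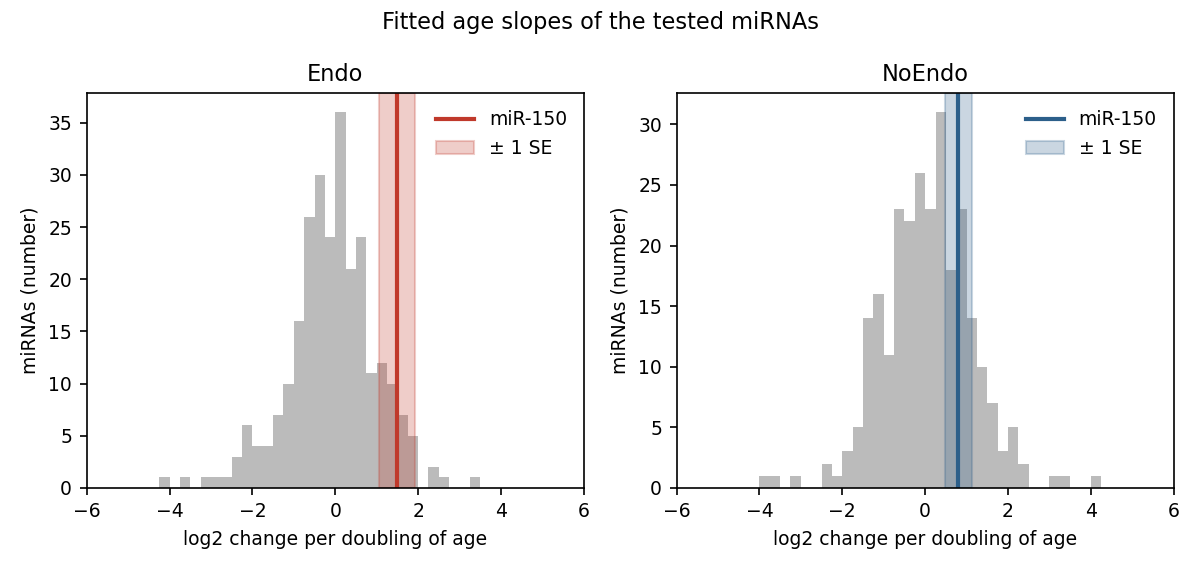
Distribution over the 265 tested microRNAs of the fitted log2 change per doubling of age in Endo (left) and NoEndo (right), with miR-150 as a line and a band of 1 SE on each side. miR-150 sits at 1.49 in Endo, in the upper tail, and at 0.80 in NoEndo, nearer the middle.

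Ratios within a library need no scaling between libraries, so miR-150 was set against single microRNAs of known cell types. Against miR-126a-3p, which is made with egfl7 in endothelium, the ratio was 0.718 in Endo at 24 hpf, 1.33 and 0.466 at 48 hpf (replicates 1 and 2), then 2.02 at 72 hpf and 5.10 at 6 dpf. In NoEndo it was 1.35 at 24 hpf, 0.811 and 0.645 at 48 hpf (replicates 1 and 2), then 0.875 at 72 hpf and 6.20 at 6 dpf. The ranges of the populations overlapped, and the ratio of Endo to NoEndo ran from 0.533 at 24 hpf to 2.31 at 72 hpf, beside a gap of 2.84-fold between the Endo replicates at 48 hpf. In both populations the library at 6 dpf had the highest ratio. miR-126a-3p itself was at 10803, 34478, 64324, 29924 and 12038 CPM in the Endo libraries and at 212, 407, 414, 502 and 107 CPM in the NoEndo libraries, in order of stage with replicate 1 first. The NoEndo ratio at 6 dpf rests on 186 counts of miR-126a-3p, with an interval of 5.31 to 7.28 from counting error. Whether endothelial cells in the NoEndo sort gave its miR-150 was not tested.

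Against miR-223 and miR-451, which blood cells carry, the ratio of miR-150 did not overlap between the populations. This is a description only, since miR-150 was chosen for high counts in Endo and low counts in NoEndo. Its ratio to a microRNA with a smaller gap tends to separate the populations by that choice. The log2 difference was 6.97 for miR-150, 3.06 for miR-223 and -0.67 for miR-451. Over miR-223, a microRNA of neutrophils and other myeloid cells, it was 5.84 in Endo at 24 hpf, 7.14 and 4.26 at 48 hpf (replicates 1 and 2), then 33.7 at 72 hpf and 112 at 6 dpf. In NoEndo it was 1.33 at 24 hpf, 0.463 and 0.348 at 48 hpf (replicates 1 and 2), then 2.23 at 72 hpf and 1.81 at 6 dpf. In Endo the ratio was higher at 72 hpf and 6 dpf than in either replicate at 48 hpf. There miR-223 itself was at 6401 and 7035 CPM at 48 hpf (replicates 1 and 2), then 1792 CPM at 72 hpf and 548 CPM at 6 dpf. Over miR-451, which red blood cells carry, the ratio ran from 38.7 to 548 in Endo and from 0.170 to 5.39 in NoEndo. Over miR-142a-3p, shared by all white blood cells, it ran from 109 to 2504 in Endo and from 2.89 to 128 in NoEndo, so that Endo at 24 hpf lay below NoEndo at 6 dpf. Over miR-155 of activated lymphocytes it ran from 109 to 5111 in Endo and from 2.96 to 82.4 in NoEndo. The counting intervals of the lowest Endo ratio to miR-155 (72.7 to 173 at 24 hpf) and of the highest NoEndo ratio (48.9 to 151 at 6 dpf) overlapped. The Endo ratio of 5111, at 6 dpf, rests on 3 counts of miR-155, with an interval of 1749 to 24788. Both microRNAs are scarce, with 3 to 69 counts of miR-155 in the Endo libraries and 14 to 208 in the NoEndo libraries, and 16 to 161 counts of miR-142a-3p in the Endo libraries and 5 to 213 in the NoEndo libraries.

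**Figure D4:**
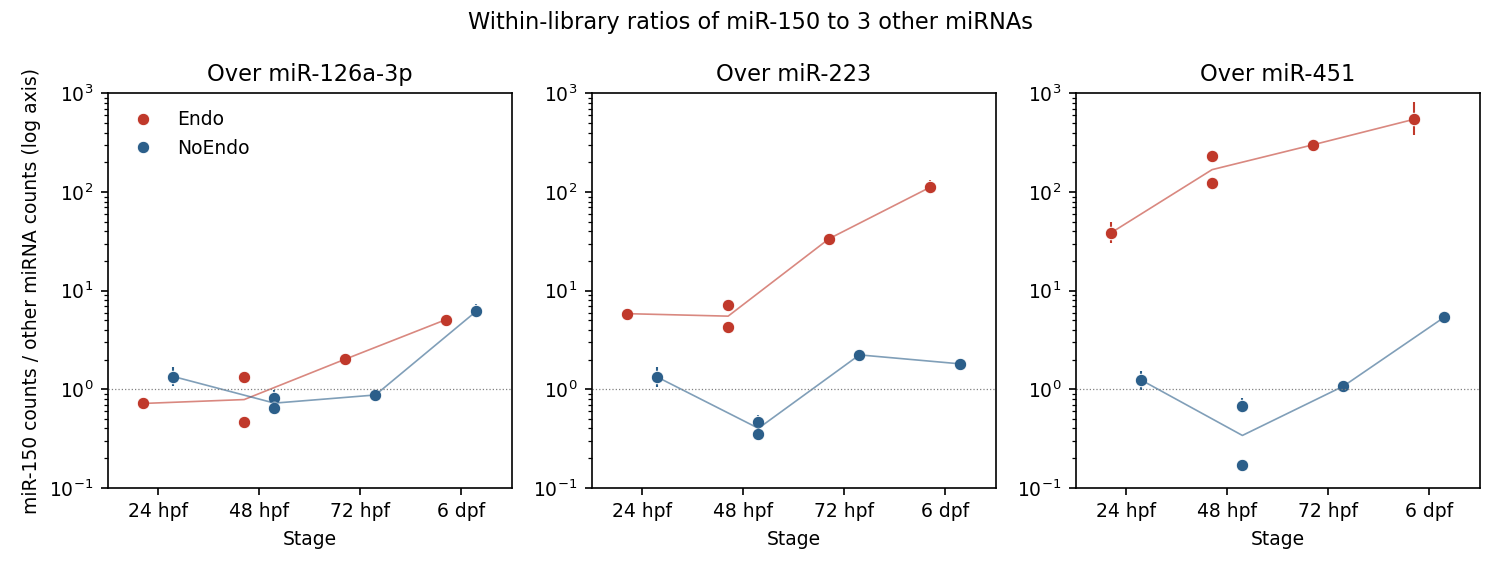
Counts of miR-150 over counts of miR-126a-3p, miR-223 and miR-451 in the same library (log axis) by stage, Endo left of NoEndo, with 95% counting intervals as vertical bars and lines through the geometric mean of each stage. The ratio to miR-126a-3p overlaps between populations (0.466 to 5.10 in Endo and 0.645 to 6.20 in NoEndo), while the ratios to miR-223 and miR-451 do not. All are descriptions, since miR-150 was chosen for its gap between populations.

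Of 9 other microRNAs listed for white blood cells, 7 could be tested. In edgeR 2 were higher in Endo, none lower and 5 not called, beside 14.3% of all tested microRNAs higher in Endo and 27.5% lower (41.9% in either direction). DESeq2 and limma-voom each called 3 of the 7, beside 135 and 115 of all 265. Over all 265, edgeR called 38 higher and 73 lower in Endo, against 19 higher and 89 lower with total counts alone. The median log2 difference of the 7 was 0.81, beside -0.07 over all 265. The members called in edgeR were miR-223 (log2 3.06, SE 0.47, edgeR adjusted p = 0.000297) and miR-142a-3p (log2 2.19, SE 0.66, edgeR adjusted p = 0.0165). miR-142a-3p no longer passed with total counts alone (log2 1.66, edgeR adjusted p = 0.0996), and without Endo replicate 2 at 48 hpf, Endo or NoEndo replicate 2 at 72 hpf, or Endo or NoEndo at 6 dpf (edgeR adjusted p between 0.0572 and 0.0827). miR-155, the member that the other tools added, was at a log2 difference of 1.04 (SE 0.41, edgeR adjusted p = 0.0560), with an adjusted p of 0.0190 in DESeq2 and 0.0341 in limma-voom. miR-146a and miR-146b, which dampen inflammatory signalling, were at 0.78 (SE 0.58) and 0.81 (SE 0.47). The lymphoid and neural microRNAs miR-181a-5p and miR-181b-5p were at 0.23 (SE 0.28) and 0.07 (SE 0.28), and as the most abundant members they held most of the summed level of the list, between 6705 and 29542 CPM in Endo and between 8417 and 31053 CPM in NoEndo. miR-451, the single tested member of the erythroid list of 3, was at -0.67 (SE 0.36).

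For age, 0 of 7 white blood cell microRNAs passed for a slope in Endo in edgeR, in DESeq2 and in limma-voom. Of all 265 microRNAs, 15 (5.66%), 53 and 11 passed in these tools, so with 7 members a count of 0 tells little. In edgeR 0 of the 7 had an unadjusted p under 0.05, beside 67 of all 265. Their median Endo slope was -0.62, beside -0.03 over all 265. miR-223, the myeloid member, was at -0.62 (SE 0.68). In NoEndo, 0 of 7 passed in any of the 3 tools, beside 40 (15.1%), 74 and 46 of all 265 in edgeR, DESeq2 and limma-voom. In edgeR 1 of the 7 had an unadjusted p under 0.05, beside 85 of all 265. The median slope was 0.13, beside 0.08 over all. The miR-126 list had 0 of 3 called slopes in either population by any of the 3 tools, with 0 at an unadjusted p under 0.05, and medians of -0.12 in Endo and -0.21 in NoEndo. With 3 members, a count of 0 tells little beside the same backgrounds.

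The microRNAs whose profile lay nearest to that of miR-150 were sought among 164 microRNAs. These had at least 100 CPM on average over the 10 libraries, also where only the Endo libraries were compared. The measure was the root mean square difference between log2 TMM-scaled levels, each centred on its own mean. This measure describes likeness and says nothing of shared control. Over all 10 libraries, the nearest were miR-126a-3p (1.19), the joint 5' arm entry of miR-126a and miR-126b (1.59), miR-139-3p (1.66), miR-126b-3p (1.68), miR-139-5p (2.12) and miR-338 (2.15), beside a median of 3.76 over the 164. Their log2 differences between populations were 6.87, 6.36, 4.41, 6.91, 3.11 and 3.36 in that order. Since miR-150 was chosen for its gap between populations, a ranking over both populations tends to place microRNAs with a large gap nearest. The ranking over 10 libraries mixes that gap with the change over stages.

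Over the 5 Endo libraries alone, other microRNAs came nearest. They were miR-129-3p, known from neurons (0.37), miR-125a (0.38), the epithelial miR-429b (0.40), miR-204-5p of the eye (0.42), the mesenchymal miR-214 (0.43) and miR-23a-3p of a vascular cluster (0.43), beside a median of 1.44. Each was lowest at 24 hpf in CPM among the Endo libraries. miR-125a was at 8049 CPM at 24 hpf, 36958 and 29777 CPM at 48 hpf (replicates 1 and 2), then 55522 CPM at 72 hpf and 107826 CPM at 6 dpf in Endo, close to the miR-150 level up to 72 hpf and above it at 6 dpf. miR-125a was not scarce in NoEndo, where it was at 2689, 18132, 22893, 25470 and 61931 CPM in the same order. miR-429b was at 9.25 to 40.2 CPM in the Endo libraries and 79.4 to 880 CPM in the NoEndo libraries, the reverse of miR-150. Its Endo levels at 24 hpf and 6 dpf rest on 3 and 9 counts, so its place among the nearest profiles is uncertain. So the microRNAs that followed miR-150 over the Endo libraries differed in which population held more of them, with log2 differences from -3.47 for miR-429b to 1.44 for miR-125a.

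**Figure D5:**
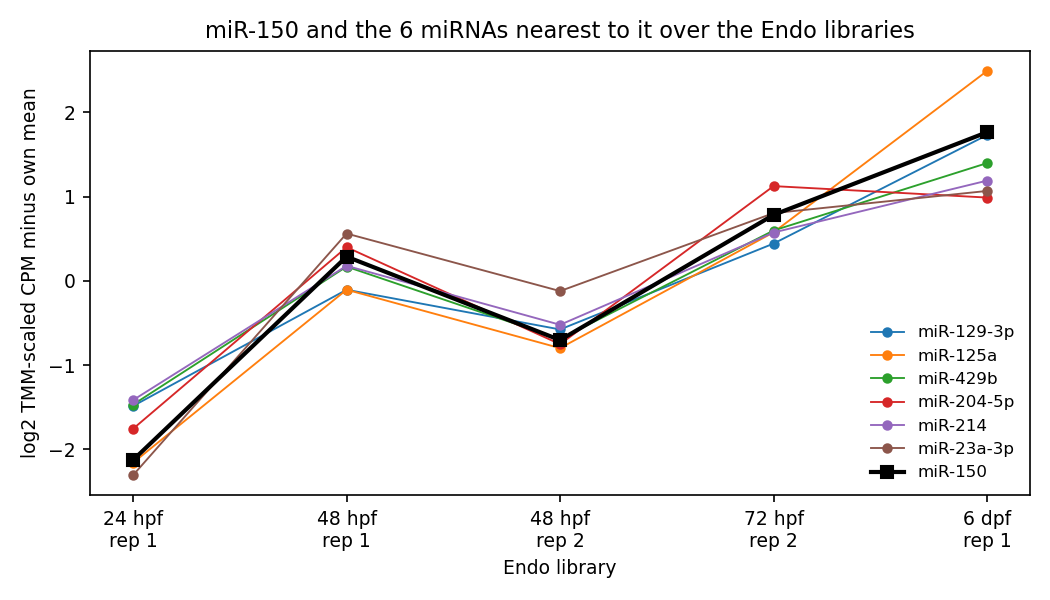
TMM-scaled levels over the 5 Endo libraries (log2, minus each microRNA's own mean) of miR-150 (black squares) and of the 6 microRNAs with the smallest root mean square difference from it. All 7 are lowest at 24 hpf and lower in replicate 2 than in replicate 1 at 48 hpf.

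The tables also give the number of distinct read sequences behind each count, a measure that the choice of miR-150 did not use but that grows with the count. miR-150 was read as 60 distinct sequences in Endo at 24 hpf, 273 and 168 at 48 hpf (replicates 1 and 2), then 284 at 72 hpf and 153 at 6 dpf. In NoEndo it was read as 23 at 24 hpf, 32 and 42 at 48 hpf (replicates 1 and 2), then 69 at 72 hpf and 41 at 6 dpf. Every Endo library except that at 24 hpf had more distinct sequences than any NoEndo library. Each distinct sequence was read 41.9 to 212 times on average in Endo and 6.72 to 31.7 times in NoEndo. miR-150 was also set against other microRNAs at 1 genomic place with a read count within 1.3-fold in the same library. In Endo at 24 hpf, 5 of 6 such microRNAs had more distinct sequences and 1 had fewer. The later Endo libraries held 4 such microRNAs in all, of which 1 had more and 3 had fewer, and Endo at 6 dpf held 0. In both Endo replicates at 48 hpf, the single microRNA of like count had fewer distinct sequences than miR-150, 220 in replicate 1 and 136 in replicate 2. In NoEndo, 43 of 69 had more and 24 had fewer. The sequences of the reads and of the mature microRNA were not analysed here.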

How the data were processed

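Small RNA reads were counted per library and strand. STAR 2.3.0 and the build Zv9 are named in the submitters' processing notes, and trimming, microRNA annotation, counting program and filters are not stated in the labels. The deposited read counts are whole reads per genomic copy, and the deposited unique reads are counts of distinct sequences, per the file headers. The deposited expected counts, read counts adjusted for multiple mapping per the file headers, are not scaled to depth. They were summed by name and rounded. The deposited signal columns, RPM relative to 2 totals per the file headers, served only to recover those totals.

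Groups and replicates came from the titles. Both identical 72 hpf tables were left out. Tests covered the 265 microRNAs that reached 10 CPM in 3 or more libraries (at least 99.9% of counts). Tests were edgeR 4.0.16 robust quasi-likelihood F tests with TMM scaling and Benjamini-Hochberg adjustment over all of them at 0.05. Models had stage as a factor plus population, or a level and a slope on log2 hours per population. The SE is the log2 value over the square root of F. The fits were tested on simulated data, but the settings and outcome are not given here, so no result rests on that test. Alternatives used DESeq2 1.42.0 and limma 3.58.1 (R 4.3.3), with intervals from scipy 1.17.1.

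miR-150 and the lists were chosen with earlier results of these data known. Named microRNAs were the neighbours by mean level, the 6 nearest profiles over 10 and over 5 Endo libraries, members of the white blood cell, erythroid and miR-126 lists, and leading microRNAs of a library. Sequences were not used here.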

Additional observations from a re-analysis of the deposited data

Results flagged for a closer look

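The table deposited under both replicate 1 titles at 72 hpf was used in no comparison, and it holds a clear miR-150 signal. Its level was 34181 CPM (17424 reads), above the highest NoEndo library used (666 CPM) and within the range of the Endo libraries used, where 2 were lower. The labels do not say which population the table belongs to, and its level was not used to assign it.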

How the results depend on the processing

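miR-150 lay above its NoEndo level in Endo under every alternative run. The log2 difference was 6.67 to 7.42 when single libraries were left out and 5.99 with the identical table kept as NoEndo. This is a description only, since miR-150 was chosen for that gap. The Endo slope passed at 1.42 with DESeq2 size factors, 1.42 in the DESeq2 Wald test, 1.54 with a 100 CPM filter and 1.491 with the identical table kept as Endo. Leaving out single libraries gave 1.20 to 1.86 in Endo, -0.00986 to 1.72 in NoEndo and -0.23 to 1.502 for their difference. Chosen after seeing the data, leaving out both libraries at 24 hpf gave 1.72 in NoEndo (passed) and -0.52 for the difference, and both at 6 dpf gave -0.0573 in NoEndo. The difference was -1.90 with the identical table as NoEndo. The cause was not tested.

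The 15 called Endo slopes, of 265 tested, became 27 with DESeq2 size factors, 53 in the DESeq2 Wald test and 29 with the identical table as Endo, each of 265. With the 100 CPM filter 25 were called, of only 185 tested. Without single libraries, 3 to 31 were called of 257 to 265 tested. These were 3 without Endo at 6 dpf, 5 without Endo at 24 hpf, 27 without NoEndo at 6 dpf and 31 without NoEndo at 24 hpf, among others. The 40 called NoEndo slopes became 20 with total counts, 74 in the DESeq2 Wald test, 26 with stage in linear days and 3 to 47 without single libraries (3 without NoEndo at 6 dpf). The DESeq2 Wald test called 1 slope difference. The 111 differences between populations became 27 with the identical table as NoEndo and 65 to 120 without single libraries (65 without NoEndo and 70 without Endo at 72 hpf). The 2 white blood cell calls, of 7 tested, became 3 in the DESeq2 Wald test, 3 in limma-voom and 3 with a replicate block. They became 1 with total counts, 0 with the identical table as NoEndo (edgeR) and 1 to 2 without single libraries. With the 100 CPM filter 1 was called, but miR-142a-3p and miR-155 were not tested there, since neither reached 100 CPM in 3 libraries. Of all microRNAs, that filter called 29 higher and 50 lower in Endo of 185 tested. Total counts called 19 higher and 89 lower of 265, and the identical table as NoEndo 7 higher and 20 lower of 265.

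At 48 hpf the replicate differences of Endo and NoEndo correlated across 258 microRNAs (r = 0.686). The microRNAs all come from the same 2 libraries of each population, so r cannot show whether replicates of like number were paired. The main models held no replicate term. With a replicate block, the miR-150 slopes were 1.55 in Endo and 0.83 in NoEndo (edgeR adjusted p = 0.0592 and 0.107), their difference was 0.72, and the population difference was 6.97. The block called 23 Endo slopes, 47 NoEndo slopes and 126 population differences.

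Relative to the larger total, miR-150 was at 0.0870%, 0.742%, 0.232%, 1.13% and 0.838% in Endo and 0.00498%, 0.00919%, 0.00634%, 0.0178% and 0.0216% in NoEndo, by stage and then replicate. Without each library's leading microRNA its share was 1.07%, 5.28%, 3.45%, 6.95% and 7.80% in Endo and 0.0373%, 0.0386%, 0.0311%, 0.0539% and 0.0811% in NoEndo. Before the multi-mapping adjustment, which counts a read at each copy of other microRNAs, its rank was 10 and 14 in Endo replicates 1 and 2 at 48 hpf and 9 in Endo at 72 hpf. Most stages have 1 library of each population, which leaves those stages without a replicate spread.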
